A study of Mus musculus with 6 samples.

Results

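The genes described here are 9 brakes on entry into the cell cycle, measured in LSK cells of mice with reduced Ercc1 function. They are the Cip/Kip inhibitors Cdkn1a and Cdkn1b, the Ink4 inhibitors Cdkn2a, Cdkn2b, Cdkn2c and Cdkn2d, and the retinoblastoma family Rb1, Rbl1 and Rbl2. Members were found by symbol: every probe set whose platform annotation held exactly 1 gene symbol, equal to one of these names, was taken. This gave 16 of the 45037 probe sets that were not controls, and all 9 genes of the 18193 with a probe set of their own had at least 1. The probe set with the highest mean signal is called the main one of its gene.

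LSK cells, sorted from bone marrow as lineage-negative cells with Sca-1 and c-Kit on their surface, are enriched for the stem cells of the blood and their early descendants. The 3 Ercc1-deficient samples came from mice with a knockout and a truncated allele of Ercc1 (-/d), and the 3 Ercc1-proficient samples from litter mates. The proficient mice of litters 1 and 2 were +/+ and that of litter 3 was +/d, so one control carried the truncated allele too. All mice were F1 animals of C57BL/6 and FVB/n, aged 22 weeks in litter 1 and 20 weeks in litters 2 and 3. Each sample was hybridised to 1 array, and the labels do not say whether a sample held cells of 1 mouse or of several. The p-values therefore reflect how much these samples vary, part of which may be technical. The Ercc1 protein pairs with Xpf to cut DNA during excision and crosslink repair.

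A cell leaves G1 when cyclin D with CDK4 or CDK6, and then cyclin E with CDK2, phosphorylate the retinoblastoma proteins, which until then hold E2F factors in check. Ink4 proteins block CDK4 and CDK6, while Cip/Kip proteins act mainly on CDK2 complexes. In blood stem cells these inhibitors are known for their part in quiescence, Cdkn1a is a classical p53 target after DNA damage, and the neighbouring Cdkn2a and Cdkn2b genes are held silent by Polycomb proteins in young tissue.

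The deposited values were MAS5 signals on a linear scale with a lowest value of 30, here called the floor; between 52.3% and 58.6% of the signals of an array lay at it. Differences were fitted with limma as log2(signal + 30), deficient minus proficient, with litter as a block, over the 22519 probe sets whose mean signal was at or above the median. Adjusted p-values are over all of these, with 0.05 as the threshold. In this fit 188 probe sets passed, 71 higher and 117 lower, which is 0.835% of those tested, and 2579 had an unadjusted p under 0.05, which is 11.5%. Of the calls 37.8% were on the higher side, and 58.1% when arrays were centred on their medians. The main Ercc1 probe set measured 79.9, 34.5 and 44.9 in deficient cells of litters 1, 2 and 3 and 128, 244 and 176 in their litter mates. The groups did not overlap, with all deficient arrays lower, as for 4.89% of all probe sets tested. The fitted log2 difference was -1.36, standard error 0.27 (limma, adjusted p = 0.0138, and 0.9998 without the litter block). The call was lost without any 1 litter (adjusted p between 0.615 and 0.718), without the filter on low signals (0.942) and without a variance trend (0.0558). In the fits without the block, the filter or 1 litter, 0 probe sets passed on the whole array, so those losses are not particular to Ercc1. The labels do not place this probe set relative to the disrupted part of Ercc1, which limits it as a check.

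Among the brakes, Cdkn1a stood out in size and evenness, yet 0 of the 7 members whose main probe set was tested passed the adjusted threshold, in either direction, beside 0.835% of all probe sets tested (0.315% higher and 0.52% lower). By unadjusted p, 2 of the 7 were under 0.05, Cdkn1a and Cdkn2c, beside 11.5% of all probe sets tested. Without the litter block it was 1 of the 7, Cdkn1a, beside 2.57%. The median log2 difference of the 7 was 0.16, beside -0.029 for all probe sets tested, and 6 of the 7 were above 0, beside 46.0% of all. The median was -0.066 in litter 1, 0.57 in litter 2 and 0.39 in litter 3. The other 2 members, Cdkn2a and Cdkn2b, were at the floor on all 6 arrays and could not be tested.

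**Figure D1:**
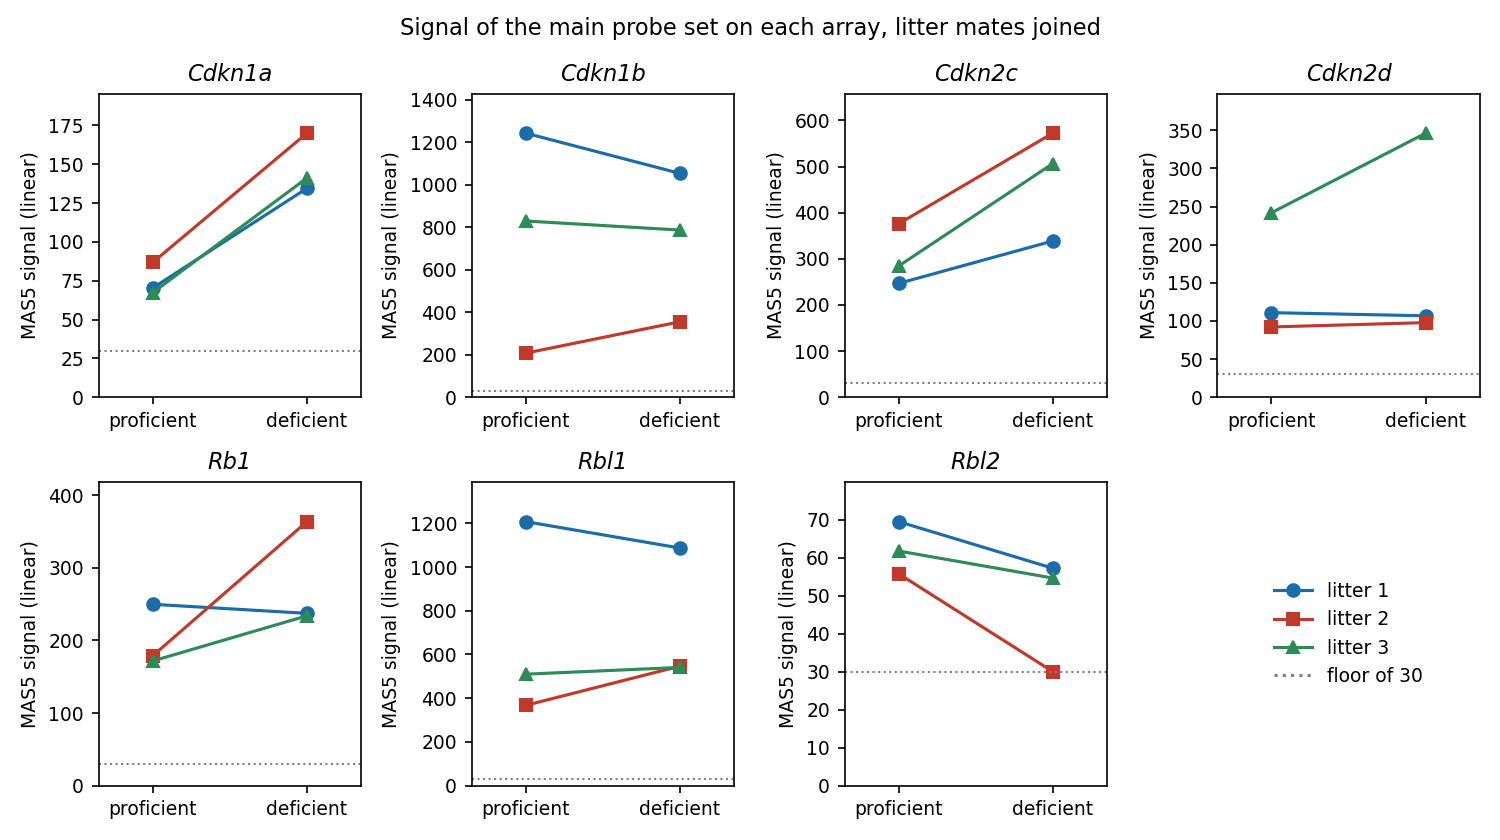
MAS5 signal (linear scale, axis from 0) of the main probe set of the 7 members above the floor, 1 panel per gene, with each litter's proficient and deficient array joined by a line and the floor of 30 dotted. All 3 lines climb from proficient to deficient for Cdkn1a and Cdkn2c and all 3 descend for Rbl2, while the other 4 genes have litters in both directions.

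Cdkn1a encodes p21, the CDK inhibitor through which p53 halts the cell cycle. Its main probe set measured 135, 170 and 141 in deficient cells of litters 1, 2 and 3 and 70.3, 86.8 and 67.3 in proficient cells of the same litters. Every deficient array lay above every proficient one, the lowest deficient signal being 135 and the highest proficient one 86.8. Of all probe sets tested, 2.3% were likewise higher without overlap, and for none of the 7 members were the deficient arrays all lower, beside 4.89% of all. The deficient-over-proficient ratio was 1.91, 1.96 and 2.10 in the 3 litters, a narrow range. The means were 149 ± 18.9 and 74.8 ± 10.5 (SD, n = 3 each), and the log2 difference was 0.77, with standard error 0.23 and a 95% interval from 0.28 to 1.26. Cdkn1a did not pass (limma, unadjusted p = 0.00343, adjusted p = 0.153). Of all probe sets tested, 2.23% had a p as small and 0.768% a larger log2 difference. Its adjusted p stayed above 0.05 in each of 12 other settings, the lowest being 0.0545 with arrays centred on their medians. In those without the litter block, the filter or 1 litter, 0 probe sets of any gene passed.

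A second Cdkn1a probe set was near the floor. It was at 30 on all 3 proficient arrays and on the deficient array of litter 1, and it measured 47.6 and 72.2 in deficient cells of litters 2 and 3. Against litter mates at the floor, the deficient signal was at least 1.59-fold higher in litter 2 and at least 2.41-fold higher in litter 3, while in litter 1 both arrays were at the floor. It did not pass (limma, adjusted p = 0.379). It passed the filter on low signals only through the deficient arrays where it was above the floor, so its sign is not separate support.

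Because Cdkn1a had the smallest p of the members and Cdkn2c the next, their promoter windows are shown to place the known control elements of these genes. Each runs from 250 bases before to 50 after a RefSeq transcription start, 5′ to 3′ on the coding strand, in assembly GRCm38.p6. Capitals mark 3 kinds of match, searched on both strands. They are the Sp1 box (GGGCGG), the E2F site (TTTGGCGC, TTTCCCGC, TTTGCCGC or TTTCGCGC) and the full p53 consensus with at most 1 mismatch.
Cdkn1a, upstream start, chr17:29090729-29091028, plus strand: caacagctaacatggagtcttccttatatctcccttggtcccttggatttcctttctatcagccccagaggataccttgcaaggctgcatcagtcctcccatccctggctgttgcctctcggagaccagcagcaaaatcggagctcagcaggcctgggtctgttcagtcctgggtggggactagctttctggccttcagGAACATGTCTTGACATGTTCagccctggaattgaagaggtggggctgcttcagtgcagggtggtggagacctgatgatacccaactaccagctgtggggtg
Cdkn1a, downstream start, chr17:29093519-29093818, plus strand: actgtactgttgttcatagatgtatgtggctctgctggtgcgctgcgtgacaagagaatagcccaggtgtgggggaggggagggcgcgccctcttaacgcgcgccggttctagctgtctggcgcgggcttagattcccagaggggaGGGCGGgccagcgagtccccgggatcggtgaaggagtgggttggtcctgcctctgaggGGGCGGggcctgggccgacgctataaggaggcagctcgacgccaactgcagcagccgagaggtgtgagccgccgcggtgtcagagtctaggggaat
Cdkn2c, upstream start, chr4:109666707-109667006, minus strand: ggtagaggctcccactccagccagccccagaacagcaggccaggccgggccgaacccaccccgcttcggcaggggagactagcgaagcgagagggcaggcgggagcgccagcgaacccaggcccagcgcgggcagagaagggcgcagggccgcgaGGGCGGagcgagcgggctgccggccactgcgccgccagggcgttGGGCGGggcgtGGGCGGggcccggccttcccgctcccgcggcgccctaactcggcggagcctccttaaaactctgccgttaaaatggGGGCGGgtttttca
The upstream Cdkn1a window held 1 p53 match, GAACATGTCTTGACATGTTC, whose first base lay 51 bases before the start, and 0.0883% of the 32851 windows in the table held such a match. The allowance of 1 mismatch was chosen after the window had been seen. The downstream Cdkn1a window had 2 Sp1 boxes and the upstream Cdkn2c window 4, while a second Cdkn2c window, not shown, had 0, in a table where 35.7% of windows held at least 1. Neither gene's windows held the E2F letters searched, which 2.26% of windows held. Of the other members, Cdkn2a and Rbl1 each had 1 E2F match, and for 8 of the 9 members a window was found in the table. A match describes letters and shows no binding, and the arrays do not say which start was used.

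Cdkn1b encodes p27, the Cip/Kip inhibitor that accumulates in resting cells. Its main probe set measured 1053, 355 and 787 in deficient cells and 1243, 207 and 829 in proficient cells of litters 1, 2 and 3. The groups overlapped fully, with litter 1 high and litter 2 low in both genotypes. The ratio was below 1 in litters 1 and 3, at 0.847 and 0.948, and 1.71 in litter 2. The log2 difference was 0.13, with a 95% interval from -0.35 to 0.62 (limma, adjusted p = 0.862), and it was -0.15 without litter 2, so its sign rested on that litter. The second probe set was weaker, at 48.5, 48.6 and 92.1 against 52.9, 34.5 and 59.5, and had a log2 difference of 0.22 (adjusted p = 0.725). Both probe sets were lower in the deficient cells of litter 1 and higher in those of litter 2, and they differed in direction in litter 3. The remaining Cip/Kip gene, Cdkn1c, which encodes p57 and is no member of the set, was at the floor on 4 arrays and at 41.0 and 37.0 in proficient cells of litters 1 and 3.

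Among the Ink4 genes, Cdkn2c was the one whose signal was higher in deficient cells of every litter. It encodes p18, an inhibitor of CDK4 and CDK6 that limits the self-renewal of blood stem cells. The main and sole probe set measured 339, 572 and 506 in deficient cells and 247, 376 and 284 in proficient cells of litters 1, 2 and 3. The groups overlapped, because the proficient array of litter 2 lay above the deficient one of litter 1. Within litters the ratio was 1.37, 1.52 and 1.78. The means were 473 ± 121 and 302 ± 66.5 (SD, n = 3 each), with a log2 difference of 0.59, standard error 0.22 and a 95% interval from 0.13 to 1.04. It did not pass (limma, unadjusted p = 0.0144, adjusted p = 0.288). Signals higher in all 3 litters were found for 2 of the 7 tested members, Cdkn1a and Cdkn2c, and for 11.3% of all probe sets tested.

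Cdkn2d, which encodes the Ink4 inhibitor p19Ink4d, followed litter more than genotype. It measured 107, 97.8 and 346 in deficient cells and 111, 92.1 and 242 in proficient cells of litters 1, 2 and 3. Both arrays of litter 3 were high, and the ratio was 0.963, 1.06 and 1.43. The log2 difference was 0.16, with a 95% interval from -0.32 to 0.65 (limma, adjusted p = 0.817). It was 0.011 without litter 3 and 0.27 without litter 1.

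Cdkn2a encodes both p16Ink4a and the MDM2 inhibitor p19Arf, and Cdkn2b encodes p15. Each had 1 probe set, and each was at 30 on all 6 arrays, in deficient and proficient cells alike. No level or fold can be given for them, since a signal at the floor bounds the transcript only from above. Of the 16 member probe sets 5 were at the floor on every array, 31.3%, beside 37.8% of all 45037. The other 3 of these were further probe sets of Rb1, Rbl1 and Rbl2, whose main probe sets were above the floor.

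Of the 3 retinoblastoma genes, the fitted difference was above 0 for Rb1 and Rbl1 and below 0 for Rbl2, and no difference between the genes was tested. Rb1, which encodes the pocket protein that binds the activating E2F factors, measured 237, 364 and 234 in deficient cells and 250, 179 and 172 in proficient cells of litters 1, 2 and 3. The groups overlapped: the highest proficient array, in litter 1, exceeded 2 of the deficient ones. The ratio was 0.950, 2.03 and 1.36, and the log2 difference 0.41, with a 95% interval from -0.083 to 0.91 (limma, adjusted p = 0.542). Without litter 2 the difference was 0.16 and without litter 1 it was 0.65, a change of more than 1.5 times either way.

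Rbl1 encodes p107, a pocket protein made mostly in cycling cells. Its main probe set measured 1087, 547 and 541 in deficient cells and 1208, 367 and 510 in proficient cells of litters 1, 2 and 3. Litter 1 was the highest in both genotypes, and the ratio was 0.90, 1.49 and 1.06. The log2 difference was 0.16, with a 95% interval from -0.31 to 0.62 (limma, adjusted p = 0.818), and it was -0.034 without litter 2. A second probe set measured 73.1, 48.5 and 104 against 67.4, 49.4 and 38.6, with a ratio of 2.71 in litter 3 and 0.982 in litter 2. Another lay between 30 and 41.9 on all arrays. Their log2 differences were 0.35 (adjusted p = 0.605) and 0.057 (adjusted p = 0.913), and the 3 probe sets had their largest ratio in different litters.

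Rbl2 encodes p130, the pocket protein that dominates in resting cells and carries the repressive E2F complex there. It was the single tested member with a negative difference. Its main probe set was weak, at 57.2, 30 and 54.6 in deficient cells and 69.5, 55.8 and 61.8 in proficient cells of litters 1, 2 and 3. The deficient array of litter 2 was at the floor, and the groups overlapped because the deficient array of litter 1 exceeded the proficient one of litter 2. In each litter the deficient signal was below that of the litter mate, as for 17.0% of all probe sets tested. The log2 difference was -0.27, with a 95% interval from -0.68 to 0.13 (limma, adjusted p = 0.640), and it was -0.15 without litter 2.

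**Figure D2:**
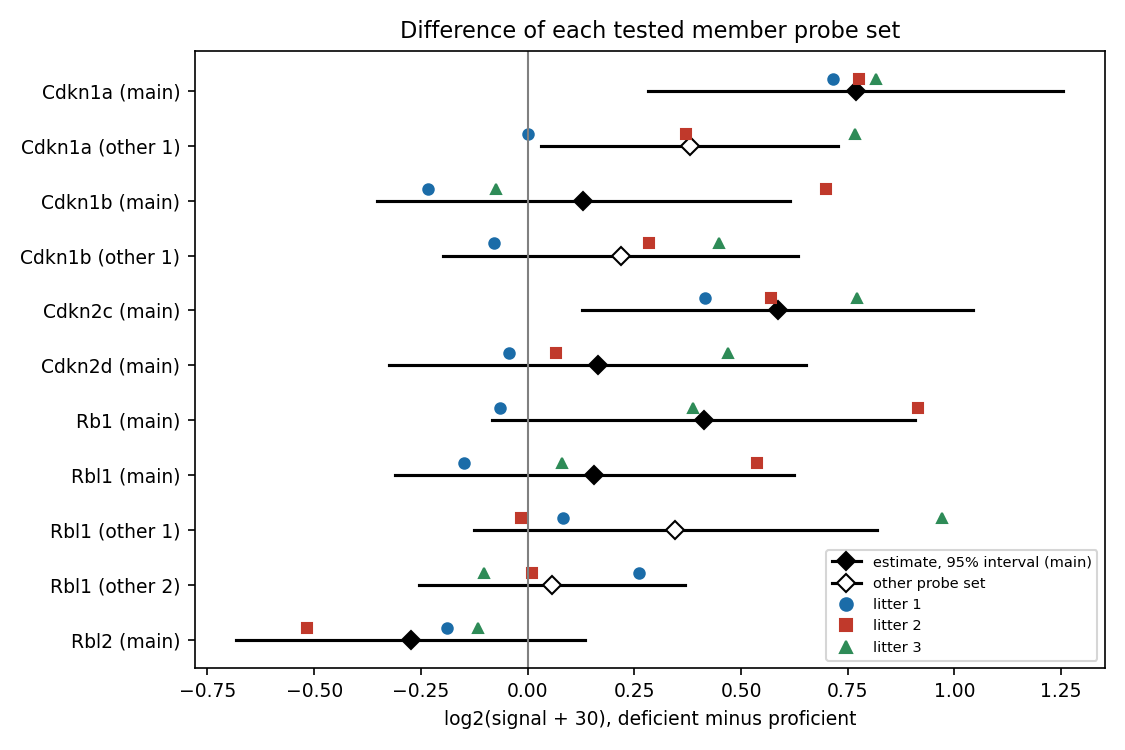
Difference in log2(signal + 30), deficient minus proficient, for the 11 tested member probe sets, with the limma estimate and its unadjusted 95% interval in black and the difference within each litter as coloured symbols. The intervals of both Cdkn1a probe sets and of Cdkn2c lie above 0, and those of the other 8 probe sets cross it. The second Cdkn1a probe set was at the floor on all 3 proficient arrays, so its difference could not be negative and is not separate support.

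Several members differed more between litters than between genotypes. The geometric mean signal of the highest litter exceeded that of the lowest 4.22-fold for Cdkn1b, 3.05-fold for Cdkn2d and 2.56-fold for Rbl1. The factor was 1.61-fold for Cdkn2c, 1.54-fold for Rbl2, 1.27-fold for Rb1 and 1.25-fold for Cdkn1a. For 5 of the 7 tested members this spread was larger than the ratio between genotypes, and the exceptions were Cdkn1a and Rb1. The ratio between genotypes, as a geometric mean over litters, was 1.99 for Cdkn1a, 1.55 for Cdkn2c and 1.38 for Rb1. For 4 members, Cdkn1b, Cdkn2c, Cdkn2d and Rbl2, the 3 litters stood in the same order in both genotypes. The spread takes the extremes of 3 litters and the genotype figure is a single ratio, so they are unlike measures. The shares of all probe sets with a larger spread or with equal litter order were not computed. Litter, age and array processing cannot be told apart in this spread.

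Neutrophil lineage genes and some technical measures differed between genotypes beside these values. Of 10 neutrophil lineage markers 6 passed as higher in deficient cells, and none was at the floor on all arrays. Their summed signal lay between 18175 and 109016 in deficient and between 3930 and 35717 in proficient cells, with a ratio of 4.62, 2.93 and 3.05 in litters 1, 2 and 3. Within every litter the deficient array was thus higher both in this sum and in Cdkn1a, whose ratio was 1.91, 1.96 and 2.10. In sorted cell RNA, more cells of a type and more RNA per cell cannot be told apart. Of the 18 spike-in probe sets of the hybridisation mix, 18, 17 and 18 were higher on the deficient array in litters 1, 2 and 3, with median log2 differences of 1.19, 0.12 and 0.18 in litters 1, 2 and 3. The 3 probe sets of 18S ribosomal RNA had medians of 0.13, 0.82 and 0.64. The 3′ over 5′ log2 ratio of Actb was 4.97, 4.27 and 3.30 in deficient and 4.05, 4.43 and 3.70 in proficient cells, so it was higher in deficient cells of litter 1 and lower in those of the other litters. The log2 difference of Cdkn1a was 0.71, 0.78 and 0.82 in the same litters. The part of neutrophil lineage RNA, spike-ins, ribosomal RNA and RNA quality in the member differences was not tested.

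**Figure D3:**
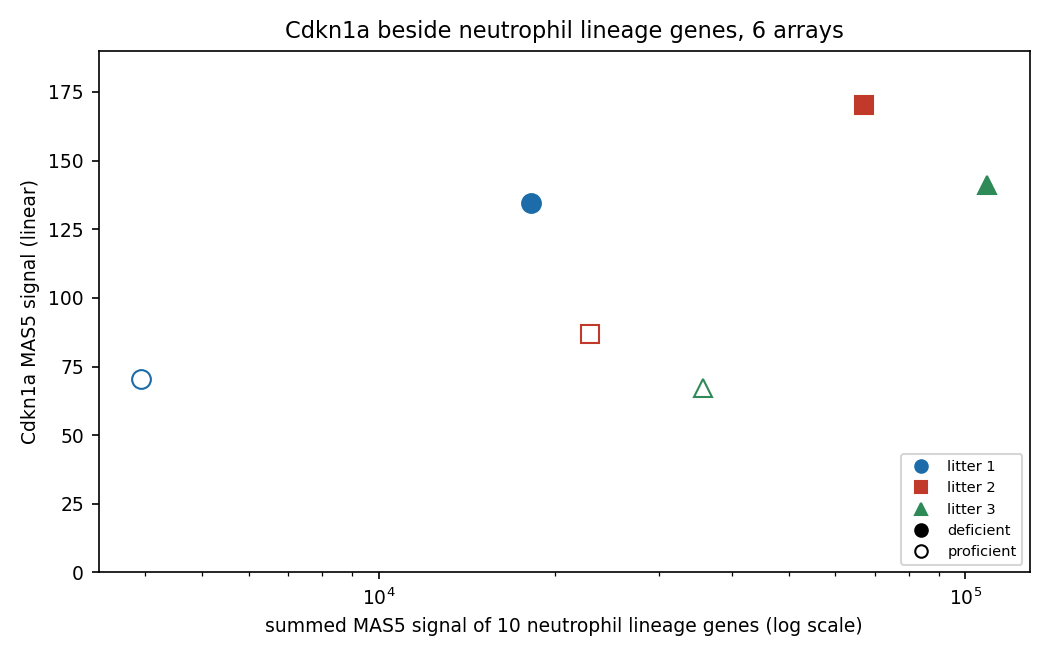
Cdkn1a signal (linear scale, main probe set) against the summed signal of 10 neutrophil lineage genes (log scale) on the 6 arrays, with litters as symbols and deficient arrays filled. Deficient arrays lie at 135 to 170 on the Cdkn1a axis and proficient ones at 67.3 to 86.8, and within each litter the deficient array is the higher one on both axes.

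Markers of the gate and of other cells were read in the same fit. Kit, which defines the gate, lay between 92.2 and 125 in deficient and between 123 and 231 in proficient cells, with a ratio of 0.539, 0.779 and 0.611 in litters 1, 2 and 3 (limma, unadjusted p = 0.0340, adjusted p = 0.380). Cd34 lay between 461 and 1370 in deficient and between 1080 and 1449 in proficient cells, with ratios of 0.946, 0.427 and 0.844 (limma, adjusted p = 0.444). Both were below the litter mate's signal in every litter and above the floor on every array, and neither passed. Ly6a is not used here for want of a probe set with its symbol alone. Of 7 LSK markers, Flt3, Procr and Hlf passed as lower in deficient cells. Slamf1 and Mecom had log2 differences above 0, at 0.36 and 0.15, and did not pass (limma, adjusted p = 0.657 and 0.835). No macrophage, B cell, T cell, erythroid, megakaryocyte or stroma and endothelium marker passed. Their summed signals were 316 to 656 against 279 to 584 for 5 macrophage genes, 255 to 543 against 379 to 708 for 5 B cell genes and 162 to 239 against 150 to 155 for 5 T cell genes, deficient against proficient. For 4 erythroid genes they were 672 to 1777 against 379 to 3230, and for 5 megakaryocyte genes 1124 to 2475 against 471 to 1862. For 6 stroma and endothelium genes they were 180 to 208 against 181 to 185. Within litters, the erythroid sum was higher in deficient cells of litter 1 and lower in those of litters 2 and 3. The megakaryocyte sum was higher in deficient cells of litters 1 and 2, and 1234 against 1238 in litter 3. A gene at the floor still adds 30 to such a sum, so the T cell and the stroma and endothelium sums were mostly floor. The higher T cell sums in deficient cells came largely from Cd3e at 90.5 in litter 1 and Cd8a at 98.4 in litter 2. At the floor on every array were C1qa, Cd79a, Cd3g, Cd4, Hba-a1 and Lepr.

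The partners and targets of the brakes were read through 11 lists holding 85 genes with a probe set of their own, of which 83 were tested. None passed (limma), 12 had an unadjusted p under 0.05, which is 14.5% beside 11.5% of all probe sets tested, and the median log2 difference was 0.053 beside -0.029 for all probe sets tested. Among 5 genes of D cyclins and CDK4 or CDK6, 0 passed, 2 were above 0 and the median was -0.0087. Ccnd1, which encodes cyclin D1, measured 483, 251 and 477 in deficient and 289, 123 and 196 in proficient cells of litters 1, 2 and 3. Each deficient array lay above its litter mate, with a log2 difference of 0.91, standard error 0.22 (limma, adjusted p = 0.0595). Ccnd1 passed when arrays were centred on their medians (0.0104), with a pseudocount of 0 (0.0470) and with a stricter filter on low signals (0.0294). Ccnd3, encoding cyclin D3, measured 98.2, 82.8 and 111 against 282, 87.0 and 158, with a log2 difference of -0.59 (adjusted p = 0.376), or -0.24 without litter 1. Ccnd2 differed by -0.16 and the kinase genes Cdk4 and Cdk6 by 0.036 and -0.0087.

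Of 5 genes of cyclin E, cyclin A and CDK2, 0 passed and 3 were above 0, with a median of 0.27. Ccne1, encoding cyclin E1, had a log2 difference of 0.67 (adjusted p = 0.348) and was at the floor in the proficient cells of litter 1. The difference was -0.27 within litter 2, and the fitted value was 0.19 without litter 1 and 1.14 without litter 2. Ccna2, encoding cyclin A2, differed by 0.33 (adjusted p = 0.621), or by 0.50 without litter 2. Of 5 genes of the ubiquitin ligase that marks p27 for degradation, 0 passed and the median was 0.033. Cks1b, an accessory factor of that ligase, differed by 0.54 (adjusted p = 0.451), by 0.25 without litter 1 and by 0.89 without litter 3, with -0.14 within litter 3. Rbx1, its RING subunit, was at the floor on 4 arrays, all 3 deficient ones among them. It differed by -0.18 (limma, adjusted p = 0.687), or by -0.048 without litter 1 and -0.27 without litter 3. Having passed the filter only through proficient arrays, Rbx1 could not differ in the positive direction. The substrate receptor Skp2 differed by 0.033.

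Of 9 tested E2F and DP factors 0 passed and 6 were above 0, with a median of 0.17 and litter medians of 0.27, 0.22 and 0.15. E2f8, an atypical repressor, measured 690, 778 and 679 in deficient and 370, 581 and 529 in proficient cells of litters 1, 2 and 3. Its groups did not overlap, with all deficient arrays higher, as for 2.3% of all probe sets tested. The log2 difference was 0.53 (limma, adjusted p = 0.350). Tfdp1, the DP partner of E2F factors, differed by 0.56 (adjusted p = 0.372), or by 0.35 after quantile normalization, and was higher in deficient cells of each litter. The 6 genes of the MuvB core, which joins p130 or p107 in the repressive DREAM complex, and of B-MYB were all above 0. They had a median of 0.30 and 0 passed, while 46.0% of all probe sets tested were above 0. Lin37, Lin52 and the B-MYB gene Mybl2 were near the floor, with 2, 2 and 3 arrays at it. The median of the 6 was 0.54 in litter 1, -0.084 in litter 2 and 0.45 in litter 3. Lin9 differed by 0.49 (adjusted p = 0.450), by 0.28 without litter 1 and by 0.79 without litter 2. Rbbp4, a histone-binding subunit, differed by 0.46 (limma, adjusted p = 0.566), or by 0.22 after quantile normalization. Its deficient arrays were likewise all higher than the proficient ones.

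Of 17 E2F target genes of DNA replication 0 passed and 12 were above 0, with a median of 0.093 and litter medians of 0.34, -0.0069 and 0.065. Rrm2, a subunit of ribonucleotide reductase, measured 12181, 8525 and 9627 in deficient and 5476, 6468 and 7216 in proficient cells of litters 1, 2 and 3. The groups did not overlap, with all deficient arrays higher, as for 2.3% of all probe sets tested. The log2 difference was 0.65 (limma, adjusted p = 0.352), or 0.41 without litter 1 and 0.40 after quantile normalization. Cdt1, a licensing factor, differed by 0.49 (adjusted p = 0.383). Of 6 proliferation markers 0 passed and 5 were above 0, with a median of 0.13. Birc5, a mitotic survival factor, had a log2 difference of 0.79 (limma, adjusted p = 0.138, or 0.0380 with arrays centred on their medians). Its deficient arrays too were all higher, within the same 2.3%. Aurkb, a mitotic kinase, differed by 0.40 (limma, adjusted p = 0.580), or by 0.052 without litter 1. Mki67 and Top2a differed by 0.023 and 0.0089.

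Of 14 tested genes of p53, MDM2 and p53 targets 0 passed and 10 were above 0, beside 46.0% of all probe sets tested. Their median was 0.093, with litter medians of -0.048, 0.16 and -0.015. Trp53 and Bax are not used here for want of a probe set with their symbol alone. Mdm4, an inhibitor of p53, measured 147, 44.7 and 109 in deficient and 284, 122 and 123 in proficient cells and had a log2 difference of -0.66 (limma, adjusted p = 0.286). Plk2, a p53 target kinase, was at the floor on 5 arrays and at 143 in proficient cells of litter 1, so its difference of -0.51 rested on that 1 array. With all 3 deficient arrays at the floor, Plk2 could not differ upward. Pmaip1 was at the floor on all 3 proficient arrays, so its difference could not be negative. Ccng1, encoding cyclin G1, differed by 0.44 (limma, adjusted p = 0.452), a value named after it was seen. Phlda3 differed by 0.31 (limma, adjusted p = 0.543), with all deficient arrays higher, as for 2.3% of all probe sets tested. Cdkn1a at 0.77 exceeded the highest of these 14, which was 0.44.

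Of 12 Polycomb regulators of the Ink4 locus 0 passed and 9 were below 0, with a median of -0.12. Suz12, a subunit of the methyltransferase complex PRC2, measured 2023, 2010 and 1412 in deficient and 1746, 1194 and 868 in proficient cells and had a log2 difference of 0.54 (limma, adjusted p = 0.355). Phc1, a subunit of PRC1, differed by -0.57 (adjusted p = 0.376), or by -0.28 without litter 2. Bmi1, the PRC1 subunit known for silencing Cdkn2a in blood stem cells, differed by -0.33 (adjusted p = 0.658). Bmi1 was chosen after its values were seen. Ezh1, with a log2 difference of -0.48, and Ring1, at -0.22, were lower in deficient cells without overlap, as were 4.89% of all probe sets tested. Ring1 was at the floor on all 3 deficient arrays and passed the filter on low signals only through proficient arrays. Its difference could therefore not be positive, and its sign and lack of overlap say little. The reverse held for Cbx8, which was at the floor on all 3 proficient arrays and could not differ downward. Of the 3 FOXO factors 0 passed and the median was -0.049. Foxo1 differed by -0.17 (adjusted p = 0.817) and Foxo4 by 0.11 (adjusted p = 0.811), and both turned sign when 1 litter was left out. Cdkn1c, the list of 1 gene, differed by -0.13 (limma, adjusted p = 0.756). It was at the floor on all 3 deficient arrays and passed the filter on low signals only through proficient arrays. Its difference could therefore not be positive, and its sign says nothing.

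**Figure D4:**
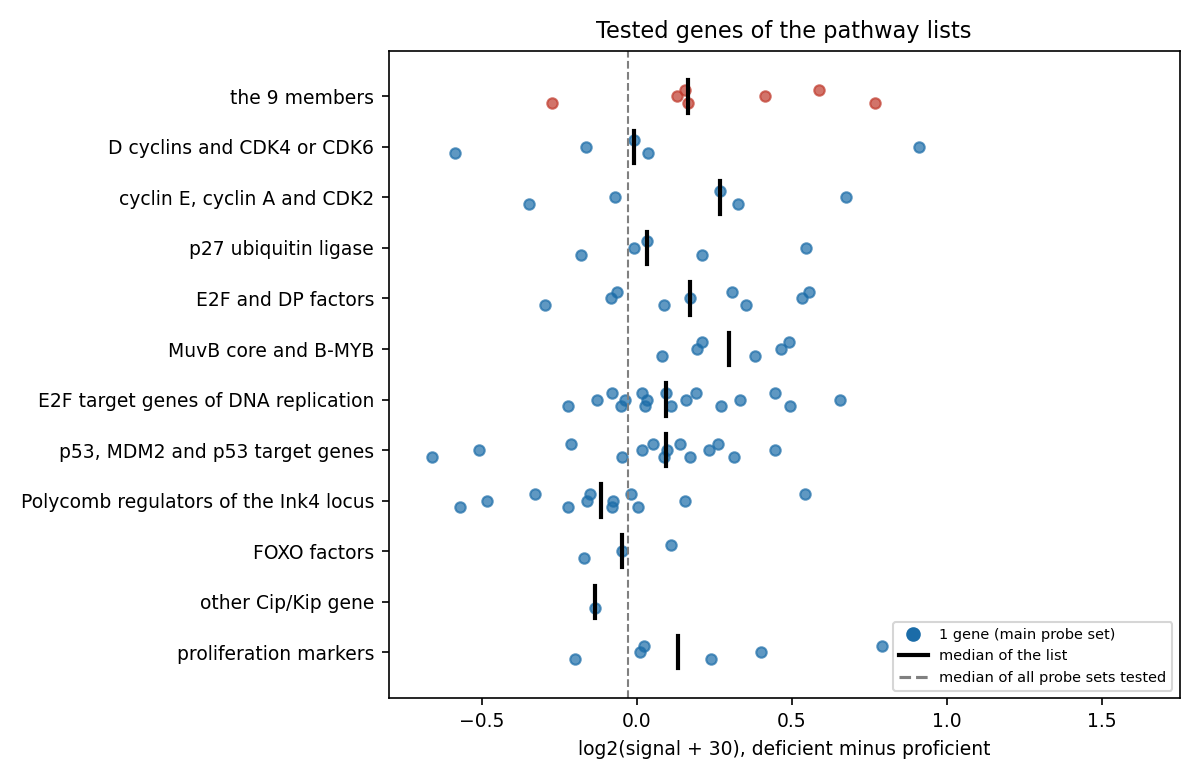
Difference in log2(signal + 30), deficient minus proficient, of each tested gene of the members and of 11 pathway lists, 1 point per gene, with the list median as a black bar and the median of all probe sets tested as a dashed line at -0.029. List medians run from -0.13 to 0.30, and no gene shown passed the adjusted threshold.

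The genes with the pattern most like Cdkn1a were found by Pearson correlation of log2(signal + 30) over the 6 arrays, among the main probe sets of 10884 genes. They were S100a16 (r = 0.987), Galnt3 (r = 0.983) and Ska3 (r = 0.978), and 39 genes had an r over 0.9. Galnt3, a glycosyltransferase gene, measured 95.1, 116 and 109 in deficient and 41.4, 44.2 and 30 in proficient cells of litters 1, 2 and 3. Of the 3 it alone passed, with a log2 difference of 0.999 (limma, adjusted p = 0.0249). Galnt3 did not pass without the litter block (0.9998), without the filter (0.942) or without any 1 litter (between 0.615 and 0.718), settings in which 0 probe sets passed. S100a16 and Ska3 were at the floor on 2 and 1 of the proficient arrays and had adjusted p-values of 0.157 and 0.404; S100a16 passed with arrays centred on their medians (0.0476). The 6 points of each correlation share arrays, litters and scaling. Likeness to Cdkn1a, whose groups did not overlap, favoured genes that differ between genotypes, so these genotype differences are not separate support.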

How the data were processed

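RNA of sorted LSK cells went through 2 rounds of linear amplification before hybridisation to an Affymetrix mouse expression array (labels' protocols). The authors deposited 1 intensity per probe set and array, the MAS5 signal on a linear scale; the submitters' processing notes name MAS5 without a version. No source used here says how the floor of 30 was set. A floor hides differences among weak genes, and repeated amplification favours 3′ ends.

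The 64 control probe sets were left out. Of the others 34945 had 1 gene symbol in the platform annotation of 2016, 932 several and 9160 none, and only the first were named. All 9 members matched a RefSeq table of assembly GRCm38.p6 by gene identifier. Differences of log2(signal + 30) were fitted by lmFit and eBayes with a variance trend (limma 3.58.1, R 4.3.3), a scale that understates the change of weak genes, with Benjamini-Hochberg adjustment. Arrays of equal number are litter mates, per the labels, and their deviations from the group means correlated with r = 0.77, 0.67 and 0.46. Litter was therefore a block in the main fit, and the alternatives are given in the closing section. Leaving out 1 array of a litter gives the same blocked fit as leaving out both. Precision is limited by there being 3 arrays in a group.

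The members and lists were chosen with earlier results of these data known. Named were all members, Ercc1, in each pathway list the genes that passed or the 2 of smallest p, and the 3 genes most like the member of smallest p. Ccnd2, Cdk4, Cdk6, Skp2, Mki67, Top2a, Ccng1, Phlda3, Bmi1, Ezh1 and Ring1 were named after their values had been seen. So were Lin37, Lin52, Mybl2, Pmaip1 and Cbx8. The same holds for the markers Slamf1, Mecom, Cd3e and Cd8a.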

Additional observations from a re-analysis of the deposited data

Results flagged for a closer look

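For 3 members the difference between genotypes had one sign in litter 1, aged 22 weeks, and the opposite sign in both litters aged 20 weeks. The log2 difference of Cdkn2d was -0.043 in litter 1 and 0.066 and 0.47 in litters 2 and 3. That of Rb1 was -0.066, against 0.91 and 0.39. That of Rbl1, by its main probe set, was -0.15, against 0.54 and 0.080. An interaction term in limma, chosen after the values were seen, gave adjusted p-values of 0.797 for Cdkn2d, 0.684 for Rb1 and 0.734 for Rbl1. A single litter was aged 22 weeks, so age and litter cannot be told apart.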

How the results depend on the processing

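The count of probe sets called, 188 in the fit with the litter block, was 0 with no replicate block, where 579 had an unadjusted p under 0.05, and 0 without the filter on low signals, where 1825 did. It was 332 with arrays centred on their medians and 114 without a variance trend, and it was 0 without any 1 litter, where 1288 to 1705 had an unadjusted p under 0.05. No member passed under any of 12 alternatives. Of the 83 member values under alternatives, 81 kept their direction and their side of the threshold. The others were Cdkn1b and Rbl1 without litter 2. Over the fits that each left out 1 litter, Cdkn1b ranged from -0.15 (without litter 2) to 0.31 and Rbl1 from -0.034 (without litter 2) to 0.31. With 1 litter left out, the log2 difference of Cdkn1a ranged from 0.75 to 0.80 and that of Cdkn2c from 0.49 to 0.67. Over all 12 alternatives the range was 0.51 to 0.99 for Cdkn1a and 0.49 to 0.68 for Cdkn2c. The count of pathway genes called, 0 in the main setting, was 2 with median centring (Ccnd1 and Birc5), 1 with a pseudocount of 0 and 1 with the stricter filter, and 0 without any 1 litter. Over the fits that each left out 1 litter, Foxo1 ranged from -0.36 to 0.095 (without litter 1) and Foxo4 from -0.072 (without litter 3) to 0.24. Fits without a litter have fewer samples. The cause of the changes under the other settings was not tested. With no replicate block the pairing by litter is ignored, and Cdkn1a had an adjusted p of 0.9998 in limma. Signals near the floor limit what can be said of Rbl2, of the second Cdkn1a probe set, and of Cdkn2a and Cdkn2b.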
